A study of Mus musculus with 18 samples.

Results

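The genes described here are 9 regulators of alternative splicing in muscle, taken by name: the CELF proteins Celf1, Celf2 and Celf4, the RBFOX proteins Rbfox1 and Rbfox2, the RNA-binding motif proteins Rbm20, Rbm24 and Rbm38, and the quaking gene Qk. They are 9 of the 46725 genes in the count files, and each was found under a single identifier. Poly(A) RNA-seq counts came from the gastrocnemius and quadriceps of 3 WT FVB mice, 3 untreated HSA-LR mice and 3 HSA-LR mice given intravenous Pip6a-PMO, 18 libraries in all, with every mouse aged 20 weeks. HSA-LR mice model myotonic dystrophy type 1 (DM1). They carry a human skeletal actin transgene with a long CTG repeat in its 3′ untranslated region (UTR), driven by the skeletal actin promoter, so that the repeat RNA is made in muscle fibers and not in the other tissues that DM1 affects. Pip6a-PMO is a morpholino antisense oligomer of CAG repeats, which pairs with the CUG repeat, joined to a cell-penetrating peptide. WT mice and the control HSA-LR mice are labelled untreated, although the shared protocol also names saline injections. The labels do not give the dose, and whether the controls received saline is not stated there. The transgene is shared by the untreated and treated HSA-LR mice and is absent from WT.

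CELF proteins bind GU-rich RNA and act on splicing in the nucleus and on mRNA decay and translation in the cytoplasm. RBFOX proteins bind the motif UGCAUG in the introns beside alternative exons, and in muscle they set the adult exon choice of many contractile and calcium-handling genes. RBM20 represses exons of titin, RBM24 promotes the inclusion of muscle exons, RBM38 is a close relative of RBM24 with a part in cell cycle exit, and QKI, the product of Qk, is a STAR-domain protein best known from myelinating cells that also acts in myogenesis. In DM1 the expanded CUG RNA holds MBNL proteins in nuclear foci, and a rise of CELF1 protein has been described in DM1 muscle beside it. The counts measure mRNA only.

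Library totals ranged from 98916844 to 143135976 counts over exon bins. Levels are given in CPM, in which the counts of every library are scaled to the same total after TMM normalization. Markers of muscle fibers (Ckm, Acta1, Myh4, Mylpf, Pvalb and Tnnt3) were all detected and summed to between 133507 and 243503 CPM. In treated gastrocnemius 3, 5′ to 3′ coverage was -0.807, against -0.468 to -0.309 in the other 17 libraries. This log2 ratio sets counts in the first 40% of exonic length against counts toward the 3′ end, over 6114 genes. In gastrocnemius it was -0.468, -0.406 and -0.457 in WT and -0.357, -0.367 and -0.347 in HSA-LR, groups that did not overlap. In quadriceps the 2 groups overlapped (-0.468 to -0.340 in WT and -0.425 to -0.335 in HSA-LR). WT mouse 2 is labelled female and its libraries held 154 and 181 CPM from Y-linked genes, whereas WT mouse 3, labelled male, held 1.15 and 1.43 CPM. The values of the 9 genes, of Celf2 bins 2, 10, 12 and 13 and of Rbfox2 bin 18 were refitted without each of them, and other values were not. Nothing in the labels says how the mice were housed or littered, and P values set differences between groups against the spread between these mice.

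Per kilobase of exonic length, a scale available for the 3 genes whose annotation matches the files, Rbm38 had the highest level, from 52.4 to 84.6 CPM per kb over the 18 libraries. Celf1 lay between 6.11 and 9.26 CPM per kb and Celf2 between 1.22 and 2.93 CPM per kb. The ranges of the 3 genes did not overlap. Without a length scale, the summed level of Rbfox1 ranged from 143 to 242 CPM, that of Qk from 87.5 to 187 CPM, that of Rbm24 from 83.7 to 128 CPM, that of Rbfox2 from 47.5 to 80.9 CPM and that of Rbm20 from 28.9 to 62.0 CPM. Celf4, a CELF protein known mainly from neurons, was close to the floor of the assay at 0.00879 to 0.824 CPM.

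**Figure D1:**
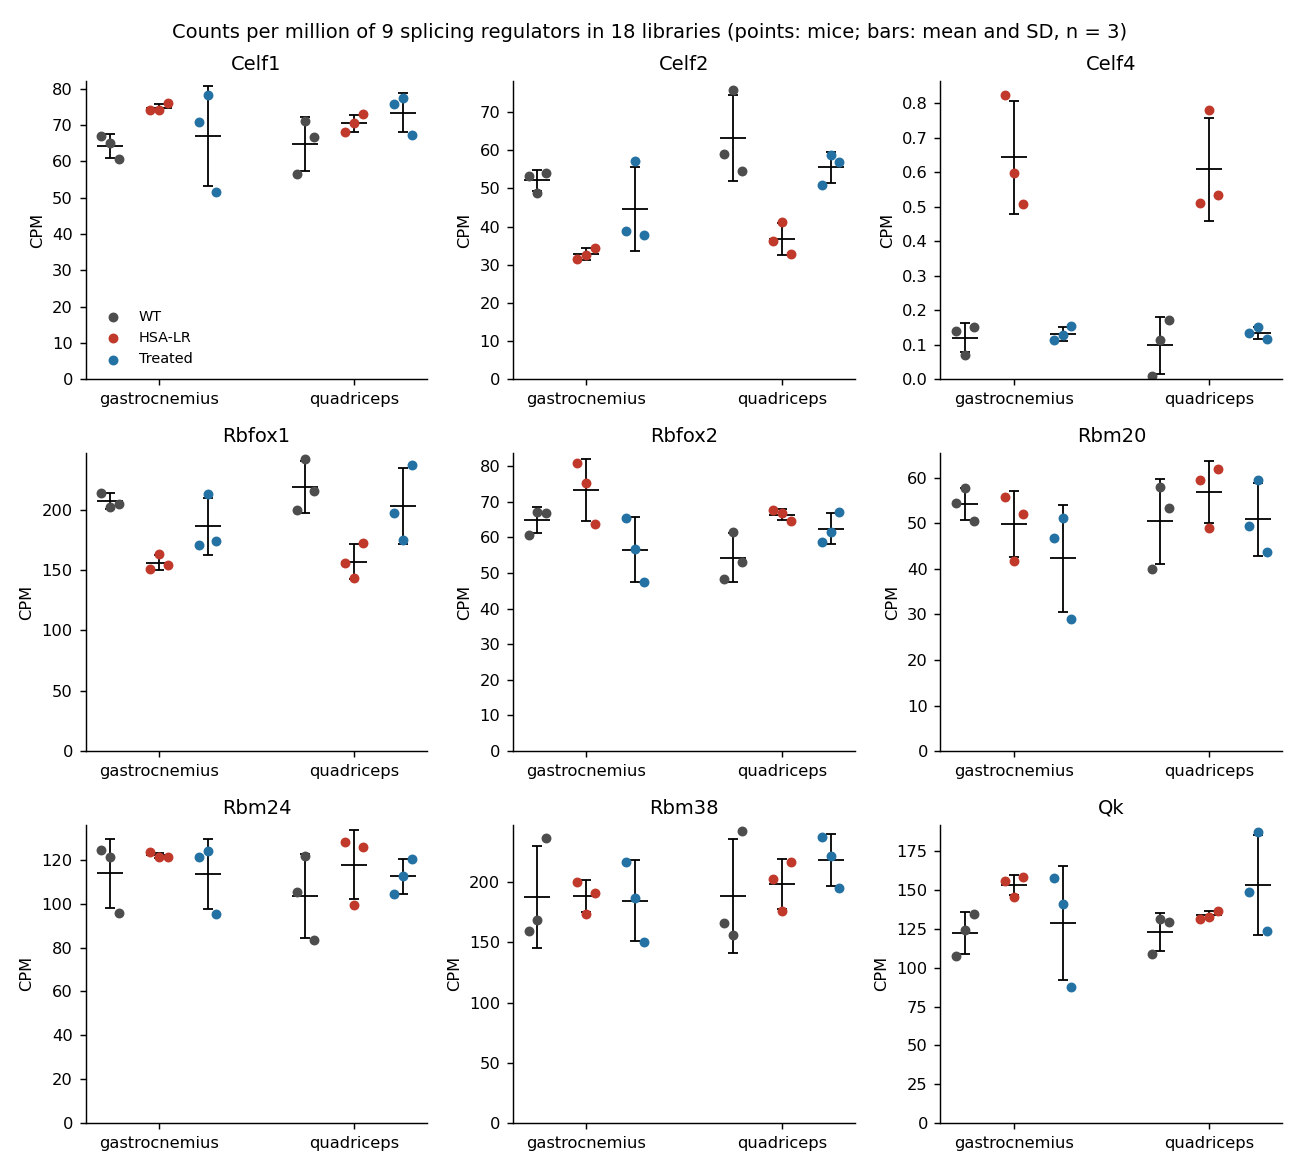
CPM (y axis, from 0) of each of the 9 regulators in every library, by condition and muscle, with the mean and SD of 3 mice. Celf2 and Rbfox1 lay lower and Celf4 lay higher in all HSA-LR libraries than in any WT library of the same muscle, and the treated mice lay between them or near WT.

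The first question was how the CUG-repeat transgene moved these genes. In HSA-LR gastrocnemius 3 of the 9 genes were called at an adjusted P under 0.1 (Celf4 higher, Celf2 and Rbfox1 lower), against 15.5% of all 15625 genes tested. In HSA-LR quadriceps 4 of the 9 were called (the same genes plus Rbfox2, higher), against 20.3% of 15574. The 3 genes in both muscles moved the same way in both. Medians of the log2 fold change (FC) over the 9 genes were 0.09 and 0.12, against -0.01 and 0.01 over all genes tested.

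Celf2, a CELF protein that is abundant in brain, heart and muscle, had 53.4, 48.9 and 54.0 CPM in WT gastrocnemius and 31.5, 32.5 and 34.5 CPM in HSA-LR gastrocnemius. In quadriceps it had 59.04, 75.9 and 54.5 CPM in WT and 36.1, 41.1 and 33.0 CPM in HSA-LR. All HSA-LR libraries lay below all WT libraries in each muscle. The log2 FC was -0.68 (SE 0.15, edgeR adjusted P = 0.0203) in gastrocnemius and -0.78 (SE 0.14, edgeR adjusted P = 0.007) in quadriceps. It was called without WT mouse 2 (adjusted P = 0.0481 and 0.0142) and without WT mouse 3 (adjusted P = 0.0493 and 0.00784).

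Rbfox1, the main RBFOX gene of adult skeletal muscle, had 214, 202 and 205 CPM in WT gastrocnemius and 151, 163 and 154 CPM in HSA-LR gastrocnemius. In quadriceps the values were 200, 242 and 215 CPM in WT and 156, 143 and 172 CPM in HSA-LR. The groups did not overlap in either muscle. The log2 FC was -0.42 (SE 0.10, edgeR adjusted P = 0.0258) in gastrocnemius and -0.48 (SE 0.13, edgeR adjusted P = 0.0398) in quadriceps. In quadriceps the call was lost without WT mouse 2 (log2 FC -0.40, adjusted P = 0.115), HSA-LR mouse 1 (adjusted P = 0.109) or HSA-LR mouse 2 (adjusted P = 0.12) and held without WT mouse 3 (adjusted P = 0.0842). In gastrocnemius it held in every refit without 1 mouse.

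Rbfox2, which is expressed in many tissues, was higher in HSA-LR quadriceps, where Rbfox1 was lower. It had 60.8, 67.1 and 66.9 CPM in WT gastrocnemius and 80.9, 75.2 and 63.8 CPM in HSA-LR, groups that overlapped (log2 FC 0.16, SE 0.13, edgeR adjusted P = 0.481). In quadriceps it had 48.2, 61.6 and 53.2 CPM in WT and 67.5, 66.9 and 64.7 CPM in HSA-LR, with no overlap (log2 FC 0.29, SE 0.10, edgeR adjusted P = 0.0865). That call was the closest of the 4 to the threshold. It held without WT mouse 2 (log2 FC 0.39, adjusted P = 0.0345) or treated mouse 3 (adjusted P = 0.0877) and was lost without any other 1 mouse, where log2 FCs were 0.21 to 0.30 and adjusted P values lay between 0.122 and 0.23.

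Celf4 had the largest fold change of the 9 genes on very few counts. Its bins summed to 17, 10 and 22 counts in WT gastrocnemius and to 107, 78 and 60 counts in HSA-LR gastrocnemius. In quadriceps they summed to 1, 13 and 20 counts in WT and to 55, 109 and 64 counts in HSA-LR. A read pair that spans several bins is counted in each, so the number of pairs is smaller. The log2 FC was 2.39 (SE 0.34, edgeR adjusted P = 0.00291) in gastrocnemius and 2.62 (SE 0.61, edgeR adjusted P = 0.0227) in quadriceps, from means of 0.121 and 0.0981 CPM in WT. Without WT mouse 2 the adjusted P was 0.0111 and 0.0624, and without WT mouse 3 it was 0.00584 and 0.0227. No bin of Celf4 passed the filter on low counts.

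The 5 remaining genes were called in neither muscle. Celf1 had 67.0, 65.0 and 60.7 CPM in WT gastrocnemius and 74.3, 74.2 and 76.0 CPM in HSA-LR, groups that did not overlap (log2 FC 0.21, SE 0.13, edgeR adjusted P = 0.379). In quadriceps its log2 FC was 0.12 (SE 0.10, edgeR adjusted P = 0.476). Qk had 108, 125 and 135 CPM in WT gastrocnemius and 156, 146 and 158 CPM in HSA-LR, again with no overlap (log2 FC 0.31, SE 0.19, edgeR adjusted P = 0.346). Treated gastrocnemius 3, the library with the low 5′ coverage, entered the estimate of spread: when it was left out, Celf1 (log2 FC 0.22, adjusted P = 0.0533) and Qk (log2 FC 0.33, adjusted P = 0.051) were called and the count rose to 5 of 9.

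Rbm20, Rbm24 and Rbm38 gave log2 FCs between -0.13 and 0.09 in gastrocnemius and between 0.08 and 0.19 in quadriceps. Of the 9 genes, 6 were not called in gastrocnemius and 5 in quadriceps. Over these, estimates with 2 SE either side spanned -0.52 to 0.69 in gastrocnemius and -0.26 to 0.50 in quadriceps. These bounds are the extremes over the uncalled genes and set no limit of detection. For each uncalled gene, changes within its own interval could not be told from none. Rbm24 had 125, 121 and 95.9 CPM in WT gastrocnemius and 123, 121 and 122 CPM in HSA-LR. Rbm38 varied widely within WT, with 159, 168 and 237 CPM in gastrocnemius and 166, 156 and 243 CPM in quadriceps, where WT mouse 3 was the highest in both muscles. Rbm20 had 54.4, 57.7 and 50.5 CPM in WT gastrocnemius and 55.7, 41.8 and 52.1 CPM in HSA-LR.

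The next question was what Pip6a-PMO did to these genes in HSA-LR mice. In gastrocnemius 1 of the 9 genes, Celf4, was called between treated and untreated HSA-LR mice, against 10% of all genes. In quadriceps 2 of the 9 were called (Celf2 higher, Celf4 lower), against 13.8% of all genes. The 3 comparisons of a muscle share libraries, so treated mice are given here by their own values. Between treated and WT mice 0 of the 9 genes were called in either muscle, where 1.04% and 1.41% of all genes were. At an unadjusted P under 0.05 the edgeR counts were 0 in gastrocnemius and 1 (Qk) in quadriceps, and DESeq2 also called 0.

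Celf2 had 38.9, 57.3 and 37.7 CPM in treated gastrocnemius and 51.0, 58.8 and 56.8 CPM in treated quadriceps. Every treated library lay above every untreated HSA-LR library of its muscle. The log2 FC against untreated HSA-LR was 0.45 (SE 0.15, edgeR adjusted P = 0.113) in gastrocnemius and 0.60 (SE 0.14, edgeR adjusted P = 0.0349) in quadriceps. The gastrocnemius value passed the threshold in 5 of 16 alternatives. It did so with DESeq2 (log2 FC 0.46, adjusted P = 0.0486) and when treated gastrocnemius 3 was left out (log2 FC 0.55, adjusted P = 0.0726). It also passed without treated mouse 1 (log2 FC 0.54, adjusted P = 0.0942), and it was 0.23 (adjusted P = 0.177) without treated mouse 2, the highest. In quadriceps the call was lost without HSA-LR mouse 1 (log2 FC 0.59, adjusted P = 0.119) or treated mouse 2 (log2 FC 0.56, adjusted P = 0.103).

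Celf4 summed to 15, 16 and 15 counts in treated gastrocnemius and to 15, 18 and 14 counts in treated quadriceps. Against untreated HSA-LR the log2 FC was -2.28 (SE 0.34, edgeR adjusted P = 0.00831) in gastrocnemius and -2.18 (SE 0.59, edgeR adjusted P = 0.0599) in quadriceps. The quadriceps call was lost without any 1 treated mouse or without HSA-LR mouse 1 or 2 (adjusted P between 0.134 and 0.174). The treated libraries of each muscle lay within or near the WT range.

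Rbfox1 had 171, 213 and 174 CPM in treated gastrocnemius and 197, 175 and 237 CPM in treated quadriceps, above all untreated HSA-LR libraries in each muscle. Neither difference passed the threshold in edgeR (log2 FC 0.26, SE 0.10, edgeR adjusted P = 0.153 and log2 FC 0.38, SE 0.13, edgeR adjusted P = 0.112), and both did in DESeq2 (adjusted P = 0.0893 and 0.0591). In quadriceps the edgeR value passed without HSA-LR mouse 3 (adjusted P = 0.0811) or treated mouse 2 (adjusted P = 0.0967). Rbfox2 had 65.5, 56.8 and 47.5 CPM in treated gastrocnemius (log2 FC -0.36, SE 0.13, edgeR adjusted P = 0.137) and 58.7, 61.6 and 67.1 CPM in treated quadriceps (log2 FC -0.08, SE 0.10, edgeR adjusted P = 0.622). In gastrocnemius its lowest value was in treated gastrocnemius 3, and without that library the log2 FC was -0.26 (adjusted P = 0.221), whereas without treated mouse 1 it was -0.49 (adjusted P = 0.071).

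The remaining 5 genes had log2 FCs between -0.24 and -0.02 in treated gastrocnemius and between -0.16 and 0.20 in treated quadriceps. Treated gastrocnemius 3 was also the lowest library of the whole series for Rbfox2 (47.5 CPM), Celf1 (51.6 CPM), Rbm20 (28.9 CPM), Rbm38 (150 CPM) and Qk (87.5 CPM). When 5′ to 3′ coverage entered the fit as a covariate, the gastrocnemius estimates of Celf1, Rbm20, Rbm24, Rbm38 and Qk against HSA-LR changed sign, to between 0.07 and 0.14, and none was called.

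**Figure D2:**
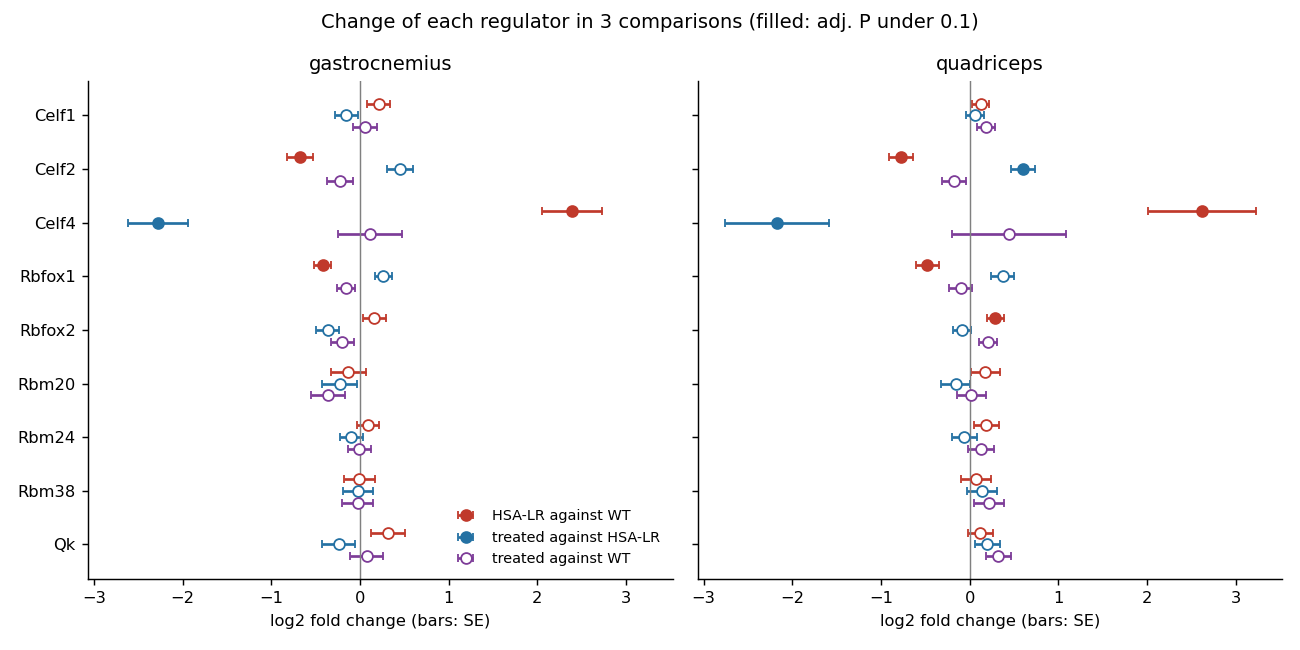
Log2 fold change with its SE (x axis) of each of the 9 genes in the 3 comparisons of each muscle, filled where the adjusted P was under 0.1. In HSA-LR against WT and treated against HSA-LR Celf4 lies farthest from 0, Celf2 and Rbfox1 lie below 0 in HSA-LR against WT, and no treated-against-WT point is filled.

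Between muscles, 0 of the 9 genes were called in WT quadriceps against WT gastrocnemius, where 0.297% of 16167 genes were. The edgeR count at an unadjusted P under 0.05 was 1 (Rbfox2, log2 FC -0.26, SE 0.12, adjusted P = 0.539) and DESeq2 called 0. The HSA-LR change itself did not differ detectably between quadriceps and gastrocnemius for any of the 9 (differences of log2 FC from -0.21 to 0.29, edgeR adjusted P = 1 for all), with 0 at an unadjusted P under 0.05 and 0 by DESeq2, and with 0% of all genes called. The difference for Celf2 was -0.12 (SE 0.21) and that for Rbfox1 was -0.07 (SE 0.16). These fits leave out that both muscles came from the same mice. With mouse as a replicate block 0 of the 9 genes were called in either test, with 1 (Rbfox2) and 0 at an unadjusted P under 0.05 (lowest edgeR adjusted P = 0.353 for WT quadriceps against gastrocnemius and 0.675 for the difference in the HSA-LR change), where 1.89% and 0.0309% of all genes were. In the blocked fit Rbm20 had the smallest P for that difference (0.31, SE 0.16).

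Exon bins were then compared, each as its change relative to the other bins of the same gene. The 9 genes have 207 bins, numbered along the chromosome irrespective of the strand. Of these, 138 passed the filter in gastrocnemius and 139 in quadriceps, and 15 were at 0 in all libraries. Bins could be placed for Celf1 (chr2:90940382-91019497, plus strand, GRCm38), Celf2 (chr2:6539694-7509563, minus strand) and Rbm38 (chr2:173020498-173034734, plus strand), whose versions match GENCODE M21. For the other genes only a bin's number and its order can be given. In HSA-LR against WT 4 bins were called in gastrocnemius and 5 in quadriceps, against 0.819% and 0.284% of all bins tested. Of these 9 calls, 8 were in Celf2 and 1 in Rbfox2.

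The called Celf2 bins lay at the 3′ end of the gene, which is where bin numbering starts on the minus strand. In 1 annotated transcript the penultimate exon (bin 14, chr2:6547042-6547213) is spliced to a last exon that is wholly UTR. In another the last intron (bins 8 to 13, chr2:6545676-6547041, 1366 bp) is kept, so that both exons and the intron form 1 long terminal exon. The stop codon of both transcripts lies in bin 14, at chr2:6547086-6547088, 44 bases before the end of that exon. The end of the reading frame is shown because it is shared by both forms, so that the bins that moved lie outside the coding sequence (minus strand, GENCODE M21 transcripts, the stop codon in capitals).
End of the Celf2 reading frame, chr2:6547086-6547115: cgctccaaaaacgacagcaaaccttacTGA

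Bin 13 (chr2:6546872-6547041, 170 bp), the part of that intron next to the coding exon, held 0.338, 0.367 and 0.410% of all Celf2 counts in WT gastrocnemius and 0.929, 1.11 and 1.05% in HSA-LR. In quadriceps it held 0.253, 0.266 and 0.126% in WT and 0.976, 0.889 and 0.863% in HSA-LR. Relative to the rest of Celf2 the log2 change was 1.47 (edgeR adjusted P = 0.0344) in gastrocnemius and 2.04 (edgeR adjusted P = 0.000363) in quadriceps. The gastrocnemius call was lost without WT mouse 2 (adjusted P = 0.197), without WT mouse 3 (adjusted P = 0.198) and without any other 1 WT or HSA-LR mouse. The quadriceps call held in every refit without 1 mouse.

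Bin 10 (chr2:6546334-6546779, 446 bp), farther into the intron, held 10, 7 and 7 counts in WT gastrocnemius and 22, 29 and 20 in HSA-LR. In quadriceps it held 8, 9 and 0 counts in WT and 16, 25 and 22 in HSA-LR. The relative log2 change was 2.31 (edgeR adjusted P = 0.00268) and 2.55 (edgeR adjusted P = 0.000724). Without WT mouse 3 the adjusted P was 0.117 in gastrocnemius and 0.0859 in quadriceps, and without WT mouse 2 it was 0.0504 and 0.00171. Bin 12 (chr2:6546859-6546871, 13 bp), between bins 13 and 10, held 9, 12 and 4 counts in WT quadriceps and 19, 23 and 20 in HSA-LR (relative log2 change 1.99, edgeR adjusted P = 0.0178). That call was lost without WT mouse 3, HSA-LR mouse 1 or HSA-LR mouse 3 (adjusted P = 0.294, 0.18 and 0.127). In gastrocnemius bin 12 was not called (relative log2 change 1.55, edgeR adjusted P = 0.129), and it was when treated mouse 2 or 3 was left out (adjusted P = 0.0162 and 0.0378). Bin 11, outside the naming rule and given because it was called, changed by 1.59 (edgeR adjusted P = 0.101) in gastrocnemius and 1.89 (edgeR adjusted P = 0.0264) in quadriceps. Bins 10 to 13 adjoin and share read pairs, so they are not separate observations.

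Taken as 1 stretch, chosen after its bins were seen and therefore given with no test, the last intron held 0.681, 0.502 and 0.596 CPM in WT gastrocnemius and 1.05, 1.16 and 1.19 CPM in HSA-LR. In quadriceps it held 0.589, 0.781 and 0.274 CPM in WT and 1.05, 1.13 and 0.995 CPM in HSA-LR. All HSA-LR libraries thus lay above all WT libraries, while the summed level of Celf2 lay below. As a share of Celf2 the intron went from 1.13% ± 0.127 (SD, n = 3) to 3.44% ± 0.118 in gastrocnemius and from 0.843% ± 0.295 to 2.89% ± 0.134 in quadriceps.

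Bin 2 (chr2:6539705-6541868, 2164 bp), toward the 3′ end of the last exon and next to bin 1, behaved likewise. Its share was 3.41, 2.92 and 3.28% in WT gastrocnemius and 6.70, 6.93 and 6.29% in HSA-LR, and 3.59, 2.25 and 3.32% in WT quadriceps and 6.94, 6.06 and 6.09% in HSA-LR. The relative log2 change was 1.05 (edgeR adjusted P = 0.00338) and 1.10 (edgeR adjusted P = 0.000583), and both calls held without WT mouse 2 (adjusted P = 0.0883 and 0.0729) and without WT mouse 3 (adjusted P = 0.0439 and 0.0018). In level, bin 2 went from 1.82, 1.43 and 1.77 CPM in WT to 2.11, 2.26 and 2.17 CPM in HSA-LR gastrocnemius, and from 2.12, 1.71 and 1.81 CPM to 2.51, 2.49 and 2.01 CPM in quadriceps. Bins 3 to 7 of the same exon (chr2:6541869-6545675) instead went from 30.2, 26.1 and 32.2 CPM to 14.97, 14.2 and 16.6 CPM in gastrocnemius. In quadriceps they went from 34.1, 38.0 and 30.5 CPM to 18.7, 19.1 and 17.4 CPM. The 2 stretches of the last exon therefore had opposite changes in level in gastrocnemius, where neither overlapped between groups. In quadriceps the groups overlapped for bin 2.

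**Figure D3:**
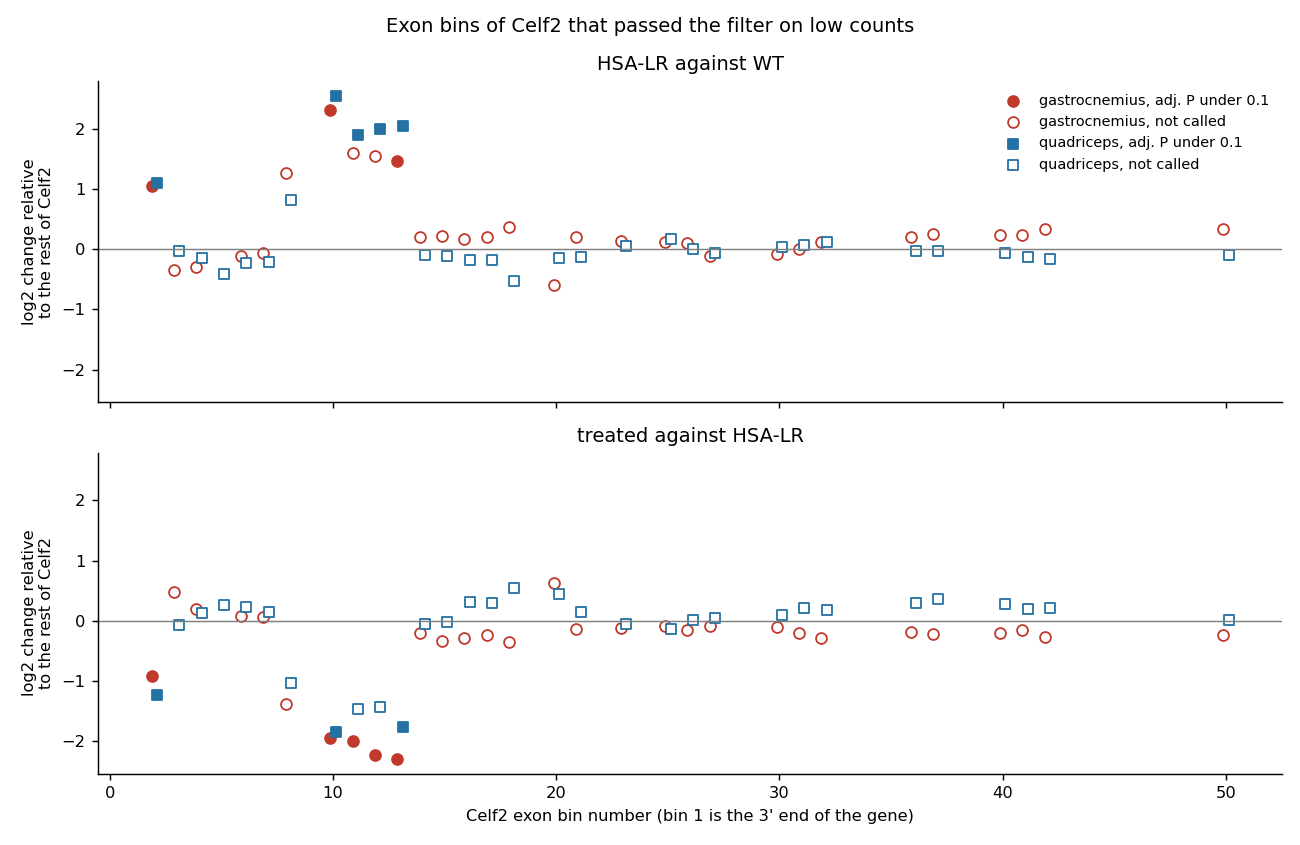
Change of each tested Celf2 bin relative to the rest of the gene (y axis, log2) against its bin number (x axis, bin 1 at the 3′ end), for HSA-LR against WT and treated against HSA-LR. Bin 2 and bins 8 and 10 to 13 stand above 0 in the first and below 0 in the second, and the 20 tested bins from 14 on lie between -0.60 and 0.63.

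**Figure D4:**
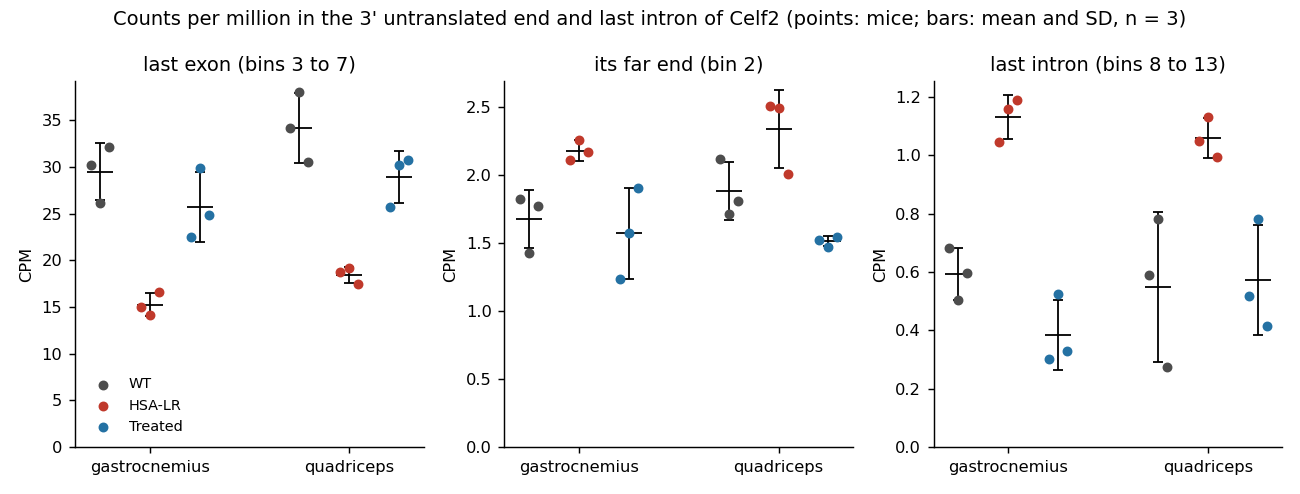
CPM (y axis, from 0) in the last exon, its far end and the last intron of Celf2 in every library, with the mean and SD of 3 mice. In HSA-LR the last exon (bins 3 to 7) lay below WT and the last intron lay above WT in both muscles.

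The same Celf2 bins were lower in treated than in untreated HSA-LR mice. Between treated and untreated HSA-LR mice 5 bins were called in gastrocnemius and 3 in quadriceps, all of them in Celf2 and all lower, against 0.309% and 0.168% of all bins. Bin 13 held 0.156, 0.239 and 0.218% of Celf2 in treated gastrocnemius and 0.280, 0.286 and 0.234% in treated quadriceps. Its relative log2 change was -2.30 (edgeR adjusted P = 0.000326) in gastrocnemius and -1.77 (edgeR adjusted P = 0.0078) in quadriceps. The gastrocnemius call held in every refit without 1 mouse. The quadriceps call was lost without HSA-LR mouse 1 (adjusted P = 0.129) and without treated mouse 1, 2 or 3 (adjusted P = 0.134, 0.1 and 0.184).

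Bin 2 held 3.17, 2.74 and 5.05% of Celf2 in treated gastrocnemius and 2.98, 2.50 and 2.72% in treated quadriceps. Treated gastrocnemius 3, the library with few counts toward the 5′ end, had the highest share of the treated libraries. The relative log2 change of bin 2 was -0.91 (edgeR adjusted P = 0.0559) in gastrocnemius and -1.23 (edgeR adjusted P = 8.61e-05) in quadriceps. The gastrocnemius call held without treated mouse 3 (-1.19, adjusted P = 8.75e-05) and without WT mouse 3 (adjusted P = 0.0788) and was lost without any other 1 mouse (adjusted P between 0.117 and 0.532). Bin 10 held 11, 5 and 7 counts in treated gastrocnemius (relative log2 change -1.95, edgeR adjusted P = 0.066) and 5, 12 and 8 in treated quadriceps (-1.85, edgeR adjusted P = 0.0818). The gastrocnemius call of bin 10 was lost without any 1 mouse other than treated mouse 3, and the quadriceps call was lost without any 1 HSA-LR or treated mouse.

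In gastrocnemius bins 11 and 12 were also called (relative log2 changes -1.99 and -2.23, edgeR adjusted P = 0.0574 and 0.0214), bin 12 not without HSA-LR mouse 2 or 3 or treated mouse 1 (adjusted P = 0.281, 0.212 and 0.404). In quadriceps neither was (-1.46 and -1.44, edgeR adjusted P = 0.422 and 0.521). Between treated and WT mice 0 of the 138 and 139 bins were called, where 0.0654% and 0.0353% of all bins were. At an unadjusted P under 0.05 the edgeR counts were 0 in gastrocnemius and 1 in quadriceps, and limma's diffSplice also called 0. The last intron, given with no test, held 0.778 to 0.912% of Celf2 in treated gastrocnemius, below all WT libraries (1.03 to 1.28%). In treated quadriceps it held 0.730 to 1.33%, which overlapped WT (0.503 to 1.03%).

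**Figure D5:**
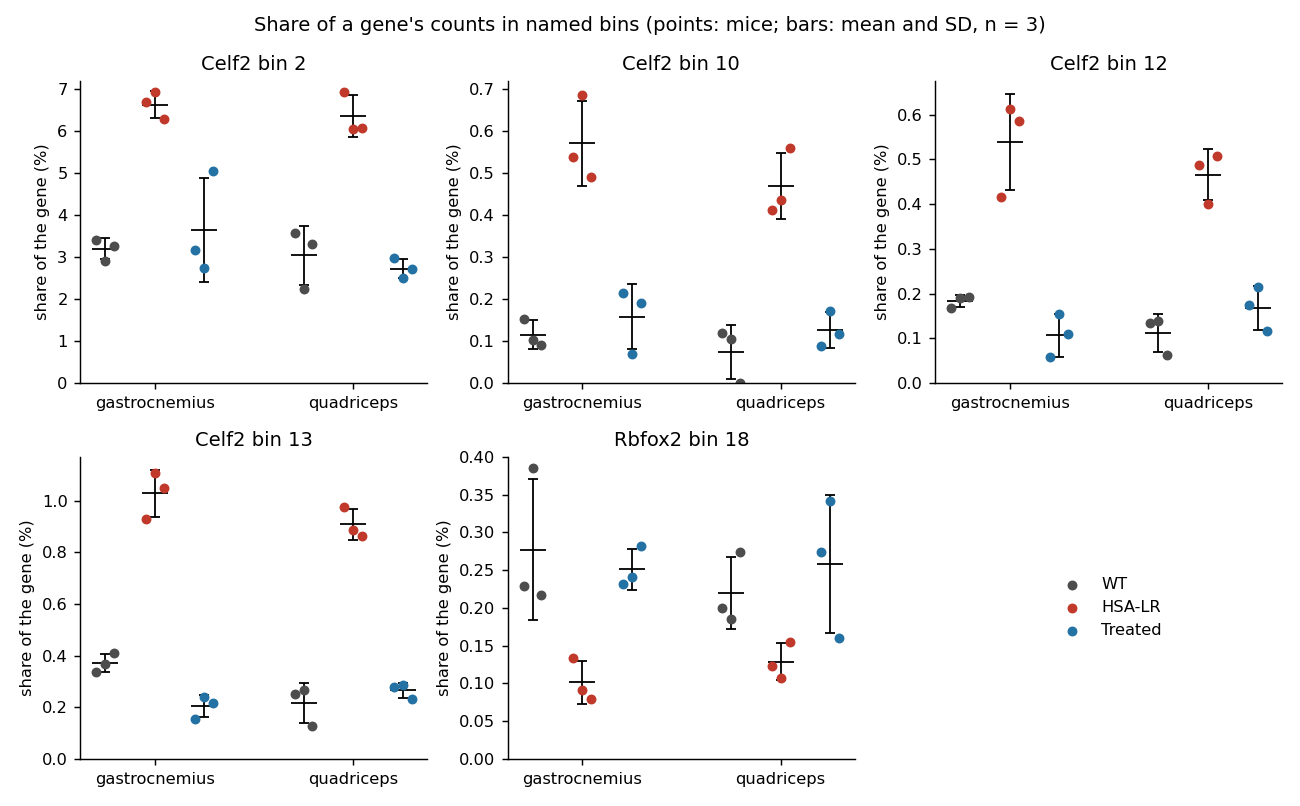
Share of its gene's counts (y axis, percent, from 0) in Celf2 bins 2, 10, 12 and 13 and Rbfox2 bin 18, which had calls in HSA-LR against WT,, in every library with the mean and SD of 3 mice. For the 4 Celf2 bins all HSA-LR libraries lie above all WT and treated libraries of their muscle, and for Rbfox2 bin 18 they lie below them.

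Bin 18 of Rbfox2, the highest-numbered of its 18 bins, held 17, 36 and 21 counts in WT gastrocnemius, 14, 9 and 6 in HSA-LR and 20, 17 and 13 in treated mice. Its share of Rbfox2 was 0.229, 0.385 and 0.217% in WT and 0.133, 0.0919 and 0.0795% in HSA-LR. The relative log2 change was -1.41 (edgeR adjusted P = 0.0728), and the call was lost without any 1 WT or HSA-LR mouse (adjusted P between 0.118 and 0.882). In quadriceps it was -0.78 and was not called (edgeR adjusted P = 1), on 11, 13 and 17 counts in WT and 9, 10 and 12 in HSA-LR.

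No bin of Celf1, Rbfox1, Rbm20, Rbm24, Rbm38 or Qk was called in any comparison. The nearest were bin 14 of Rbm38 (chr2:173023050-173023326, a stretch annotated only in noncoding transcripts) and bin 7 of Celf1 (chr2:90965092-90965210, a noncoding exon). Rbm38 bin 14 held 30, 30 and 39 counts in WT quadriceps, 69, 89 and 82 in HSA-LR and 46, 56 and 21 in treated mice (relative log2 change of HSA-LR against WT 1.11, edgeR adjusted P = 0.144). Celf1 bin 7 held 3, 3 and 6 counts in WT gastrocnemius and 16, 17 and 14 in HSA-LR (relative log2 change 1.81, edgeR adjusted P = 0.203). For both, all HSA-LR counts were above all WT counts in each muscle. They were chosen for mention after their values were seen.

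Among the coding bins of Celf1 and Celf2 are short in-frame stretches that some transcripts include and others skip. Their sequences are shown because each adds or removes a few amino acids without shifting the frame (sense strand, GENCODE M21 transcripts on GRCm38).
Celf2 bin 20, chr2:6560659-6560670: gtaccataaaca
Celf2 bin 18, chr2:6553965-6553982: ttgctcaaatgctctcag
Celf1 bin 20, chr2:91006620-91006631: ctttatttgcag

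None of the 3 was called. Celf2 bin 20 held 0.292, 0.558 and 0.384% of Celf2 in WT gastrocnemius and 0.122, 0.307 and 0.367% in HSA-LR (relative log2 change -0.60 in gastrocnemius and -0.14 in quadriceps, edgeR adjusted P = 1 in both). Celf2 bin 18 held 0.253, 0.428 and 0.283% in WT quadriceps and 0.103, 0.227 and 0.355% in HSA-LR (relative log2 change -0.53, edgeR adjusted P = 1), and its relative log2 change in gastrocnemius was of the opposite sign (0.36, edgeR adjusted P = 1). Celf1 bin 20 held 1.75, 2.13 and 1.89% of Celf1 in WT gastrocnemius and 2.57, 2.23 and 2.50% in HSA-LR (relative log2 change 0.34 in gastrocnemius and 0.19 in quadriceps, edgeR adjusted P = 1 in both). With between 4 and 38 counts in a library, the Celf2 stretches could show large changes only.

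Pip6a-PMO pairs with CUG repeats, so the longest run of CTG in each gene's annotated transcripts was counted. It was 3 triplets in Celf2, Rbfox1, Rbm24 and Rbm38 and 2 in Celf1, Celf4, Rbfox2, Rbm20 and Qk. Runs of at least 3 triplets occur in 8.63% of the 55450 genes in the transcript file and runs of at least 2 in 57.2%. The regulators were not compared with genes of like transcript length, so these shares give no test of enrichment.

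Other RNA-binding proteins related to these 9 were read from a list of 16 (further CELF and RBFOX genes, STAR-domain genes related to Qk, RBMS genes and the MBNL genes among them), of which 15 are in the files and 11 were tested in each muscle. In HSA-LR against WT 2 rose and 0 fell in gastrocnemius (Zfp638, log2 FC 0.27, edgeR adjusted P = 0.0355, and Rbms2, log2 FC 0.26, edgeR adjusted P = 0.0812). In quadriceps 2 rose and 0 fell (Rbms2, log2 FC 0.25, edgeR adjusted P = 0.0751, and Celf3, another CELF gene known from neurons, log2 FC 1.76, SE 0.59, edgeR adjusted P = 0.0825). These are 2 of 11 in each muscle, near the 15.5% and 20.3% of all genes that were called. Celf3 was not called in gastrocnemius (log2 FC 0.33, SE 0.80, edgeR adjusted P = 0.845). The list's median log2 FC was 0.11 and -0.02. In treated against HSA-LR mice 1 fell in gastrocnemius and 0 moved in quadriceps, and 0 differed between treated and WT mice in either muscle.

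Genes described as splicing targets of such regulators in striated muscle were read from a list of 32, of which 31 are in the files and were tested. In HSA-LR against WT 6 rose and 3 fell in gastrocnemius, and 7 rose and 5 fell in quadriceps, or 9 and 12 of 31 against 15.5% and 20.3% of all genes. Camk2d, a calcium-dependent kinase of muscle, rose with a log2 FC of 1.18 (edgeR adjusted P = 0.000482) and 1.37 (edgeR adjusted P = 8.9e-05), and Fhod3, a formin of the sarcomere, with 0.48 (edgeR adjusted P = 0.00776) and 0.43 (edgeR adjusted P = 0.0214). Clcn1, the muscle chloride channel, fell by 0.76 (edgeR adjusted P = 0.0106) and 0.89 (edgeR adjusted P = 0.00535) on the log2 scale. The transcription factor Mef2c rose by 0.61 (edgeR adjusted P = 0.0133) in gastrocnemius and 0.54 (edgeR adjusted P = 0.027) in quadriceps. The RNA-binding protein gene Fxr1 rose by 0.37 (edgeR adjusted P = 0.0256) in gastrocnemius and 0.33 (edgeR adjusted P = 0.0517) in quadriceps. For Pdlim3 the rise was 0.75 (edgeR adjusted P = 0.0388) in gastrocnemius and 0.94 (edgeR adjusted P = 0.00247) in quadriceps. Tnnt3, fast troponin T, fell in quadriceps (log2 FC -0.68, edgeR adjusted P = 0.00952). In gastrocnemius Tnnt3 was not called (log2 FC -0.43, edgeR adjusted P = 0.192).

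Bins of 13 of these target genes were called in HSA-LR against WT gastrocnemius (53 bins) and bins of 11 in quadriceps (30 bins). These were 4.49% of the 1180 target bins tested in gastrocnemius and 2.62% of the 1146 in quadriceps, against 0.819% and 0.284% of all bins. They included 10 and 9 bins of Tnnt3, 16 and 3 of Ttn, 5 and 2 of Ldb3, and 2 and 2 of Bin1. In treated against untreated HSA-LR mice 47 target bins were called in gastrocnemius and 19 in quadriceps. These were 3.98% and 1.66% of those tested, against 0.309% and 0.168% of all bins. Between treated and WT mice bins of 1 target gene were called in gastrocnemius and bins of 4 in quadriceps. They came to 8 bins in each muscle (0.678% and 0.698%), against 0.0654% and 0.0353% of all bins. Many of the target genes are also spliced by MBNL proteins, and whether the 9 regulators had a part in the changes was not tested.

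Marker genes of other cells moved between the same groups in quadriceps. Of all genes tested in HSA-LR against WT, 20.3% were called in quadriceps and 15.5% in gastrocnemius. Of 5 immune markers, 4 rose in HSA-LR quadriceps (summed level 33.6 to 45.0 CPM in WT and 62.2 to 80.7 CPM in HSA-LR), and of 6 satellite cell and regeneration markers 3 rose and 1 fell (24.9 to 40.7 CPM and 46.1 to 51.0 CPM). Of 4 endothelial markers 3 fell (209 to 278 CPM and 139 to 176 CPM), as did 3 of 4 smooth muscle markers (120 to 163 CPM and 84.6 to 107 CPM). In gastrocnemius 1 immune and 2 regeneration markers rose, 2 smooth muscle markers fell, and 0 endothelial markers moved. No slow fiber, adipocyte or erythroid marker was called between HSA-LR and WT mice in either muscle. In treated against untreated HSA-LR quadriceps 4 of 6 slow fiber markers rose, where 13.8% of all genes were called. The summed level of the 6 in quadriceps was 97.6 to 411 CPM in WT, 18.1 to 95.0 CPM in HSA-LR and 38.0 to 1586 CPM in treated mice. Of the 6 muscle fiber markers 2 (Tnnt3 and Ckm) fell in HSA-LR quadriceps. All of the immune, endothelial, smooth muscle and regeneration markers were above 0 in every group. In bulk muscle fewer cells of a type and less RNA per cell cannot be told apart, and the part of these cells in the levels of Celf2, Rbfox1, Rbfox2 or Celf4 was not tested.

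The 3 genes whose log2 CPM most resembled that of each called regulator over the 18 libraries are given as a description. The libraries fall into 6 groups and share mice between muscles. They were Uevld, Sort1 and Zmym2 for Celf2 (Pearson r = 0.953, 0.933 and 0.924), Foxo4, Rprd1a and Dcaf6 for Rbfox1 (0.964, 0.962 and 0.949), Ska2, Krt222 and Syt14 for Celf4 (0.935, 0.926 and 0.914) and Bcl9, Bicra and Tnik for Rbfox2 (0.857, 0.837 and 0.835).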

How the data were processed

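Poly(A) RNA of gastrocnemius and quadriceps from 9 mice was sequenced. The deposited files hold the authors' unnormalized counts for each exon bin, 1 file per library, written in DEXSeq's format. The submitters' processing notes name GRCm38, CASAVA, HISAT and featureCounts 1.5.0, with no role given. Entries naming no gene (2.82 to 4.14% of a library) were left out. Gene levels are sums over bins, so that a read pair crossing a bin boundary enters more than once. Symbols came from GENCODE M21. Bin positions were used where the gene version and the number of bins matched. Sequences were cut from the M21 transcripts.

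Genes and bins passed edgeR's filterByExpr (minimum count 10, minimum total 15), were TMM-normalized and were tested with glmQLFit and glmQLFTest or diffSpliceDGE (edgeR 4.0.16, R 4.3.3), each muscle's 9 libraries being fitted together. P values were adjusted by Benjamini-Hochberg over all genes or bins tested, and calls were made at an adjusted P under 0.1. The difference between muscles was tested on all 18 libraries. Alternatives used DESeq2 1.42.0 and limma 3.58.1 among others. The scripts were tested on simulated data. Pairs of replicates differed by far more than sampling noise (chi-square per gene 73.6 to 693).

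Groups and numbers came from the sample labels. Numbers shared across groups marked no common origin, whereas both muscles of a number were taken to come from 1 mouse. Correlations of deviations between muscles had a median of 0.215 for the same number and -0.0902 for different numbers. Their ranges overlapped (0.0645 to 0.511 and -0.375 to 0.219). One marker list is not reported here. The 9 genes and the gene lists were chosen with earlier results of these data known. All 9 were named, with up to 4 bins per gene called in HSA-LR against WT in either muscle, up to 5 genes per list by smallest P, and the 3 most similar genes.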

Additional observations from a re-analysis of the deposited data

How the results depend on the processing

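The fall of Celf2 and the rise of Celf4 in HSA-LR against WT mice were called in both muscles under every alternative run, and so was the fall of Rbfox1 in gastrocnemius. In quadriceps the fall of Rbfox1 was called in 13 of 16 alternatives and the rise of Rbfox2 in 6 of 16. The Rbfox2 call was lost with no minimum count (edgeR adjusted P = 0.156), with 5′ to 3′ coverage as a covariate (0.128) and with only the 2 groups compared (0.126). The number of the 9 genes called in HSA-LR against WT gastrocnemius was 5 with only the 2 groups compared in the fit, where Celf1 (log2 fold change 0.22, edgeR adjusted P = 0.0588) and Qk (0.33, edgeR adjusted P = 0.0498) were added. Between treated and untreated HSA-LR gastrocnemius it was 4 with DESeq2, 3 on the largest bin of a gene and 2 with 5′ to 3′ coverage as a covariate, against 1 in edgeR. For bins limma's diffSplice called 2 in HSA-LR against WT gastrocnemius and 2 in treated against HSA-LR gastrocnemius, where edgeR called 4 and 5. Why these counts moved was not tested.

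Leaving out 1 mouse at a time gave 3 to 5 genes in HSA-LR against WT gastrocnemius, 2 to 4 in quadriceps, 1 to 3 in treated against HSA-LR gastrocnemius and 0 to 3 in quadriceps. The same refits gave 1 to 8 bins, 3 to 5 bins, 1 to 5 bins and 1 to 3 bins. Treated against WT, they gave 0 genes and 0 bins. With the replicate number as a block, although numbers shared across groups showed no pairing (median correlation of deviations -0.0647 in gastrocnemius and 0.0577 in quadriceps), the counts of genes called were the same, and the call of Rbfox2 bin 18 was lost (relative change -1.40, edgeR adjusted P = 0.105).

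Only values far from the threshold changed sign, 46 in all (lowest adjusted P = 0.505). With 5′ to 3′ coverage as a covariate, treated against HSA-LR gastrocnemius gave Celf1 0.074, Qk 0.065, Rbm20 0.091, Rbm24 0.067 and Rbm38 0.14 on the log2 scale, treated against WT gastrocnemius gave Rbm24 0.077, Rbm38 0.051 and Celf2 bin 2 -0.069, treated against HSA-LR quadriceps gave Celf1 -0.043, and treated against WT quadriceps gave Celf4 -0.15, Rbm20 -0.14 and Celf2 bin 2 0.14. On the largest bin of a gene, Rbm38 was 0.062 in HSA-LR against WT gastrocnemius, Celf4 was -0.30 and Rbm24 0.0035 in treated against WT gastrocnemius, and Rbm20 was -0.061 in treated against WT quadriceps. Rbm24 was 0.0054 with RLE size factors and 0.0054 with DESeq2 in treated against WT gastrocnemius, and Rbm38 was 0.0045 in HSA-LR against WT gastrocnemius with only the 2 groups compared.

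Without 1 mouse at a time, log2 fold changes in HSA-LR against WT ranged from -0.023 to 0.16 for Rbm24 and -0.11 to 0.19 for Rbm38 in gastrocnemius and from -0.045 to 0.30 for Rbm38 in quadriceps. In treated against HSA-LR they ranged from -0.16 to 0.0083 for Rbm24 and -0.16 to 0.099 for Rbm38 in gastrocnemius and from -0.17 to 0.0038 for Rbm24 in quadriceps. In treated against WT gastrocnemius the ranges were -0.070 to 0.22 for Celf1, -0.15 to 0.32 for Celf4, -0.11 to 0.29 for Qk, -0.12 to 0.11 for Rbm24, -0.17 to 0.17 for Rbm38, -0.14 to 0.35 for Celf2 bin 2 and -0.33 to 0.16 for Rbfox2 bin 18. In treated against WT quadriceps they were -0.090 to 1.12 for Celf4, -0.13 to 0.13 for Rbm20, -0.0014 to 0.26 for Rbm24, -0.34 to 0.0085 for Celf2 bin 2 and -0.042 to 0.49 for Rbfox2 bin 18.

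With 5′ to 3′ coverage as a covariate, Celf2 bins 2, 10 and 13 stayed called in HSA-LR against WT in both muscles (edgeR adjusted P between 2.97e-08 and 0.00459). Bin 12 stayed called in quadriceps (edgeR adjusted P = 0.0101). In treated against HSA-LR quadriceps the call of bin 10 was lost (edgeR adjusted P = 0.107). The bins of Celf2 that moved held between 0 and 51 counts in a library apart from bin 2, and Celf4 held at most 109, so the sizes of their changes are loosely fixed.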
